A study of Mus musculus with 2 samples.

Results

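The genes described here are 41 genes of the cell cycle, read among the 31053 genes of a single-cell RNA count of mouse kidney cortex. They were taken by symbol from a list, and all 41 were found in both libraries. Of these, 15 act in DNA replication, 21 in mitosis, 3 are cyclins of the G1 phase (Ccnd1, Ccne1 and Ccne2), and 2, Stmn1 and Hmgb2, are high in dividing cells but have other uses. The study holds 1 library labelled PT-I_Ppo-1, called PT I-PpoI below, and 1 library labelled Wild-Type, both from kidney cortex of mice at 16 weeks. I-PpoI is a homing endonuclease that cuts DNA and leaves double-strand breaks, and the series title places it in the epithelium of the proximal tubule (PT), the segment that reabsorbs most of the filtrate. The labels used here name neither the promoter that drives it nor the number of animals behind a library. The enzyme's own transcript was not analysed here, so cells that carried it were not marked.

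A cell that divides first copies its DNA in S phase and then separates the copies in mitosis. The MCM helicase, loaded by Cdc6 and Cdt1, opens the DNA, Pcna clamps the polymerase to it, and Rrm1, Rrm2, Tyms and Tk1 supply nucleotides. Later, cyclins A and B with Cdk1 drive entry into mitosis, Top2a untangles the chromosomes, kinetochore proteins and kinesins move them, and Cdc20 and Ube2c mark cyclins for destruction. In the adult kidney few tubule cells divide at rest, and division of surviving tubule cells is a known part of repair after injury. Members of both lists are known to be transcribed in waves, replication genes through E2F sites and mitosis genes through the cell cycle homology region (CHR) and CCAAT boxes.

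Promoters of 4 members are shown because the letters searched were found at different rates in replication and mitosis members. RefSeq promoter windows (GRCm38.p6) were found for 33 of the 41 members, 13 of them replication and 18 mitosis members, and the 250 bases before each start site were searched on both strands. The letters searched were TTTCCCGC, TTTCGCGC, TTTGCCGC and TTTGGCGC for E2F, TTTGAA and TTTAAA for CHR, and CCAAT, with the joined CDE-CHR element, which contains a CHR match, as a further motif. An E2F match stood in 4 of 13 replication members (Cdc6, Mcm5, Mcm6 and Mcm7) and in 1 of 18 mitosis members (Cdk1), against 1.86% of all 32851 windows. A CHR match stood in 12 of 18 mitosis members (66.7%) and in 3 of 13 replication members (23.1%), against 25.2% of all windows. CCAAT was found in 16 of 18 mitosis and 9 of 13 replication members, against 33.85% of windows. Of the members with a window, the CDE-CHR letters were in Cdk1 alone, and they were in 0.0548% of all windows. In the last 100 bases E2F letters were in 1 of 13 replication and 0 of 18 mitosis members, against 0.846% of all windows, and CHR letters in 1 of 13 and 9 of 18, against 9.71%. The stretches below run 5′ to 3′ on the gene's strand, with capitals for E2F letters in Mcm6 (chr1:128359706-128359855, minus strand) and Mcm5 (chr8:75109259-75109508, plus strand) and for CHR letters in Mki67 (chr7:135716380-135716529, minus strand) and Top2a (chr11:99024190-99024439, minus strand).
Mcm6: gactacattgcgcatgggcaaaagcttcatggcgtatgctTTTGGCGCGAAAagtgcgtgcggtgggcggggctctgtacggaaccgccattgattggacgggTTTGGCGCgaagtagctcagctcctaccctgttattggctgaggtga
Mcm5: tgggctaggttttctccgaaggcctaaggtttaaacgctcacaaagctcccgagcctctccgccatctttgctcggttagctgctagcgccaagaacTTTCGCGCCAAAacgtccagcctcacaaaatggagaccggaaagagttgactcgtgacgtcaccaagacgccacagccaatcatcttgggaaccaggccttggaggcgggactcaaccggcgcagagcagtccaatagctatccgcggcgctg
Mki67: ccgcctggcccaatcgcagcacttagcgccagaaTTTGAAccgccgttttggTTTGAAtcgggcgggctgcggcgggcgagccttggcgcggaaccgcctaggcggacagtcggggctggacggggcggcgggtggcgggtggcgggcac
Top2a: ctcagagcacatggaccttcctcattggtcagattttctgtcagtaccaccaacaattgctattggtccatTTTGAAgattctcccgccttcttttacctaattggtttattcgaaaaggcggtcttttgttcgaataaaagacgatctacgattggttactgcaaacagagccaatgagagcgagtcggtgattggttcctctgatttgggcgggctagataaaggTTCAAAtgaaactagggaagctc
In Mcm6 and in Mcm5 a pair of overlapping E2F matches, one on each strand, makes a run of 12 capitals, and Mcm6 holds a further match that begins 47 bases before the start. Mki67 has CHR letters that begin 116 and 98 bases before the start, and Top2a at 179 and 23 bases, with 6 CCAAT boxes in its window. A match describes these letters only and no binding was measured here.

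Unique molecular identifiers (UMIs, one per captured RNA molecule) totalled 93257620 for PT I-PpoI, and the wild-type library had 107977310. Kept cells numbered 5088 and 11954, with a median of 11233 and 2700 UMIs per cell, so that a member at the same level is read in fewer wild-type cells. Cell classes were rebuilt from marker genes, and each class name stands for cells that look like that type. Immune cells numbered 591 and 1571, endothelial cells 847 and 2113, and tubule cells 3265 and 7785, of which PT cells were 170 and 5897. All 57 immune, 12 endothelial and 61 tubule markers were read in their lineage in both libraries. The same barcode was kept in both libraries for 22 cells. Of each pair of values the first is from PT I-PpoI. Levels are in CPM (UMIs of a gene or list per 1000000 UMIs of the cells), and a ratio is the log2 of the PT I-PpoI level divided by the wild-type level. Each group is 1 library, so the groups could not be tested against each other. Ranges in brackets are 95% intervals for counting error alone, and they understate the error where most UMIs come from a handful of cells. In a sum over cells, more cells in cycle and more RNA per such cell cannot be told apart.

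Summed replication members stood higher in the PT I-PpoI library in each of the 3 lineages, least in endothelial cells. In immune cells the 15 members summed to 403 CPM (384 to 423) and 220 CPM (207 to 233), a log2 ratio of 0.88 (0.76 to 0.99). In tubule cells they stood at 104 CPM (102 to 107) and 72.4 CPM (69.9 to 74.9), a ratio of 0.53 (0.47 to 0.59). In endothelial cells they stood at 171 CPM and 144 CPM, a ratio of 0.24 (0.11 to 0.37). A ratio of 1 or more, that is 2-fold, was reached by 4 of 15 members in immune cells, where 5.11% of all 12676 genes with 10 or more UMIs reached it. It was reached by 3 of 14 in endothelial cells, where 7.22% of genes did, and by 5 of 15 in tubule cells, where 22.5% of genes did. No replication or mitosis member was lower by 2-fold or more in immune or endothelial cells, where 8.84% and 5.69% of genes were. The replication sum of endothelial cells (0.24) lay close to the median gene there (0.20), and the sum of tubule cells (0.53) nearer to the median gene (0.36) than that of immune cells (0.88 against -0.06). TMM scaling, which sets the typical gene level between libraries, moves all tubule ratios by -0.35, all endothelial ratios by -0.20 and all immune ratios by 0.05, and the replication sums of tubule and endothelial cells are then 0.18 and 0.05.

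Among the replication members with 30 or more UMIs, Rrm2 and Pclaf had the highest ratios in immune cells, and Rrm2, Cdc6 and Pclaf in tubule cells. Rrm2 (chr12:24708241-24714146, GRCm38), the regulated subunit of ribonucleotide reductase, was read with 64 and 25 UMIs in immune cells and 417 and 85 in tubule cells. Its levels were 15.7 and 4.94 CPM in immune cells, a ratio of 1.65 (0.98 to 2.40), and 7.93 and 1.84 CPM in tubule cells, a ratio of 2.10 (1.77 to 2.47). Pclaf, a partner of the Pcna clamp, stood at 74.5 and 23.7 CPM in immune cells, a ratio of 1.65 (1.34 to 1.97), and at 2.38 and 0.605 CPM in tubule cells, a ratio of 1.95 (1.37 to 2.62). Both genes had the higher level in PT I-PpoI in the immune and the tubule lineage. In endothelial cells Rrm2 had 21 and 2 UMIs, a ratio of 2.71 (0.96 to 6.13), and Pclaf 16 and 4, with an interval that spans 0.

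Ratios of the helicase and clamp genes were lower than those of Rrm2 and Pclaf in both lineages. Mcm5 stood at 21.7 and 10.5 CPM in immune cells (1.04, 0.54 to 1.57) and at 3.12 and 1.45 CPM in tubule cells (1.10, 0.69 to 1.54). Mcm3 had a ratio of 0.69 in immune and 1.11 in tubule cells. Mcm2, Mcm4, Mcm6 and Mcm7 lay between 0.13 and 0.70 in immune cells and between 0.12 and 0.86 in tubule cells, where Mcm6 and Mcm7 turn to -0.09 and -0.23 under TMM scaling. In endothelial cells Mcm2 had the only negative value of the helicase, -0.46 (-1.10 to 0.17). Pcna was higher in PT I-PpoI in all 3 lineages, at 48.5 and 26.9 CPM in immune, 35.2 and 25.0 in endothelial and 17.0 and 8.90 in tubule cells. Gins2, a helicase cofactor, had ratios of 0.94 in both immune and tubule cells. The origin licensing genes Cdc6 and Cdt1 were sparse, with 40 and 8 UMIs of Cdc6 (ratio 2.07) and 56 and 58 of Cdt1 (ratio -0.23) in tubule cells. Rrm1, the constant subunit of the reductase, stood at 11.5 and 6.85 CPM in tubule cells (0.74), below the ratio of its partner Rrm2.

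The thymidylate genes Tyms and Tk1 had ratios below 0 in tubule cells as a whole, as did Cdt1. Tyms, which makes thymidylate, was read with 1078 and 973 UMIs there, at 20.5 and 21.02 CPM, a ratio of -0.04 (-0.16 to 0.09). Tk1, thymidine kinase, was lower in PT I-PpoI tubule cells as a whole, with 75 and 133 UMIs, at 1.43 and 2.87 CPM, a ratio of -1.01 (-1.44 to -0.59), where 11.9% of genes were lower by 2-fold or more. In the tubule classes with 10 or more UMIs it was higher: PT cells stood at 9.71 and 3.90 CPM (1.35), the TAL (thick ascending limb) had 19 UMIs and 1 UMI, and the DCT (distal convoluted tubule) 29 and 0. All genes together had 18847221 and 4267634 UMIs in the TAL and 8886980 and 1552204 in the DCT. With 1 and 0 wild-type UMIs of Tk1, the TAL and DCT values are imprecise. PT cells held 130 of the 133 wild-type UMIs, and they numbered 170 and 5897 in the libraries. In immune cells Tk1 was higher in PT I-PpoI, at 15.01 and 6.72 CPM, a ratio of 1.15 (0.53 to 1.81).

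Mitosis members had higher summed ratios than replication members in each lineage, and all 21 had a ratio above 0 in immune and tubule cells. In immune cells they summed to 612 CPM (588 to 636) and 279 CPM (264 to 293), a ratio of 1.13 (1.04 to 1.23). In tubule cells they summed to 74.4 CPM (72.1 to 76.8) and 27.1 CPM (25.6 to 28.6), a ratio of 1.46 (1.37 to 1.55). In endothelial cells they summed to 160 CPM (151 to 169) and 26.3 CPM (22.2 to 30.8), a ratio of 2.60 (2.36 to 2.86). A 2-fold higher value was found for 14 of 21 members in immune cells (5.11% of all genes), for 18 of 20 with 10 or more UMIs in endothelial cells (7.22%), and for 17 of 21 in tubule cells (22.5%). The median ratio of the members was 1.13, 2.89 and 1.50, beside -0.06, 0.20 and 0.36 for all genes tested. The endothelial ratio was 0.28 (-0.05 to 0.61) without 5 cells per library, and the tubule ratio was 0.47 (0.36 to 0.57) where each library was clustered on its own.

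**Figure D1:**
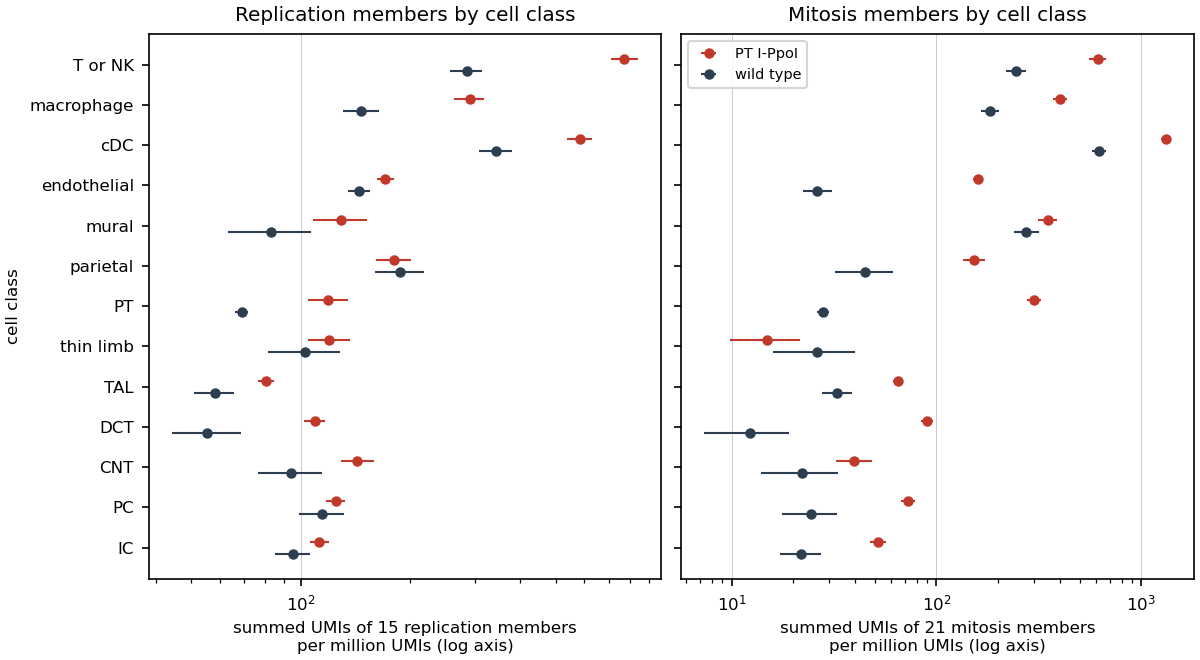
Summed level of the 15 replication members (left) and the 21 mitosis members (right) in each cell class, in CPM on a log axis, with PT I-PpoI in red, wild type in dark blue and bars for the 95% Poisson interval. Mitosis sums in PT cells stand at 301 and 27.9 CPM, while replication sums stay closer together outside the immune classes.

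Proliferation markers and chromosome proteins were higher in PT I-PpoI in immune and tubule cells. Mki67 (chr7:135689784-135716361, GRCm38), which coats mitotic chromosomes, was read with 324 and 159 UMIs in 59 and 45 immune cells, at 79.7 and 31.4 CPM, a ratio of 1.34 (1.06 to 1.63). In tubule cells it had 439 and 120 UMIs in 57 and 27 cells, at 8.35 and 2.59 CPM, a ratio of 1.68 (1.39 to 1.99). Top2a (chr11:98992943-99024189), the topoisomerase, stood at 77.3 and 40.1 CPM in immune cells (0.94, 0.69 to 1.21) and at 7.42 and 1.36 CPM in tubule cells (2.44, 2.06 to 2.85), the highest ratio of the list there. Birc5, a subunit of the chromosomal passenger complex, had ratios of 1.13 in immune and 0.82 in tubule cells, the latter -0.54 with each library clustered on its own. In endothelial cells Mki67 had 72 and 7 UMIs in 9 and 3 cells, and Top2a 72 and 5 UMIs in 10 and 4 cells.

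The cyclins and kinases that drive mitosis were higher in PT I-PpoI in the 3 lineages. Cdk1 stood at 24.4 and 7.12 CPM in immune cells, the highest ratio of the list there at 1.76 (1.21 to 2.37), and at 3.14 and 0.929 CPM in tubule cells (1.74, 1.27 to 2.28). Its partners Ccna2, Ccnb1 and Ccnb2 had ratios of 1.52, 0.96 and 1.46 in immune cells and 1.44, 1.17 and 0.41 in tubule cells, the last with an interval that spans 0 (-0.11 to 0.94). In endothelial cells Ccna2 was read with 31 and 0 UMIs and Ccnb1 with 35 and 0. With the wild-type counts set to a floor of 3 UMIs these are 7.85-fold and 8.86-fold higher. These folds leave out the counting error of the PT I-PpoI counts. Ccnb2 had 54 UMIs and 1 UMI there, a ratio of 4.79 (2.82 to 10.69). Aurka, Aurkb and Plk1, kinases of the spindle and the chromosomes, had 33 and 16, 89 and 48, and 27 and 19 UMIs in immune cells. In tubule cells they had 88 and 30, 51 and 9, and 63 and 15 UMIs, with ratios of 1.35, 2.25 and 1.85. The direction of a pair of these genes turned with the clustering: Cdk1 was -0.78 in endothelial cells with the cell cycle genes kept among the clustering genes, and in tubule cells Cdk1 was -0.10 and Ccnb1 -0.022 with each library clustered on its own.

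Kinetochore, checkpoint and exit genes were higher in PT I-PpoI too. Cenpf, a kinetochore protein, was read with 136 and 66 UMIs in immune, 137 and 6 in endothelial and 449 and 95 in tubule cells, with ratios of 1.35, 4.01 and 2.05. Bub1b of the checkpoint had ratios of 1.302 in immune and 2.36 in tubule cells, and Bub1 was sparse, with 31 and 5 UMIs in tubule cells and 3 and 0 in endothelial cells. The spindle genes Tpx2 and Kif11 had ratios of 1.47 and 1.13 in immune cells and 2.34 and 1.11 in tubule cells. Ube2c, which helps to destroy cyclin B, had 250 and 157 UMIs in immune, 154 and 5 in endothelial and 250 and 73 in tubule cells. Cdc20, the activator of the anaphase promoting complex, stood at 17.5 and 6.92 CPM in immune, 14.0 and 2.10 in endothelial and 2.78 and 1.34 in tubule cells. Cenpe and Nusap1 had the lowest tubule ratios beside Ccnb2, at 0.13 (-0.25 to 0.51) and 0.59 (0.21 to 0.98), and Cenpe turns to -0.22 under TMM scaling. With each library clustered on its own, the tubule ratios of Nusap1 (-1.43), Ube2c (-0.63), Cdc20 (-0.45) and Kif11 (-0.025) turned.

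**Figure D2:**
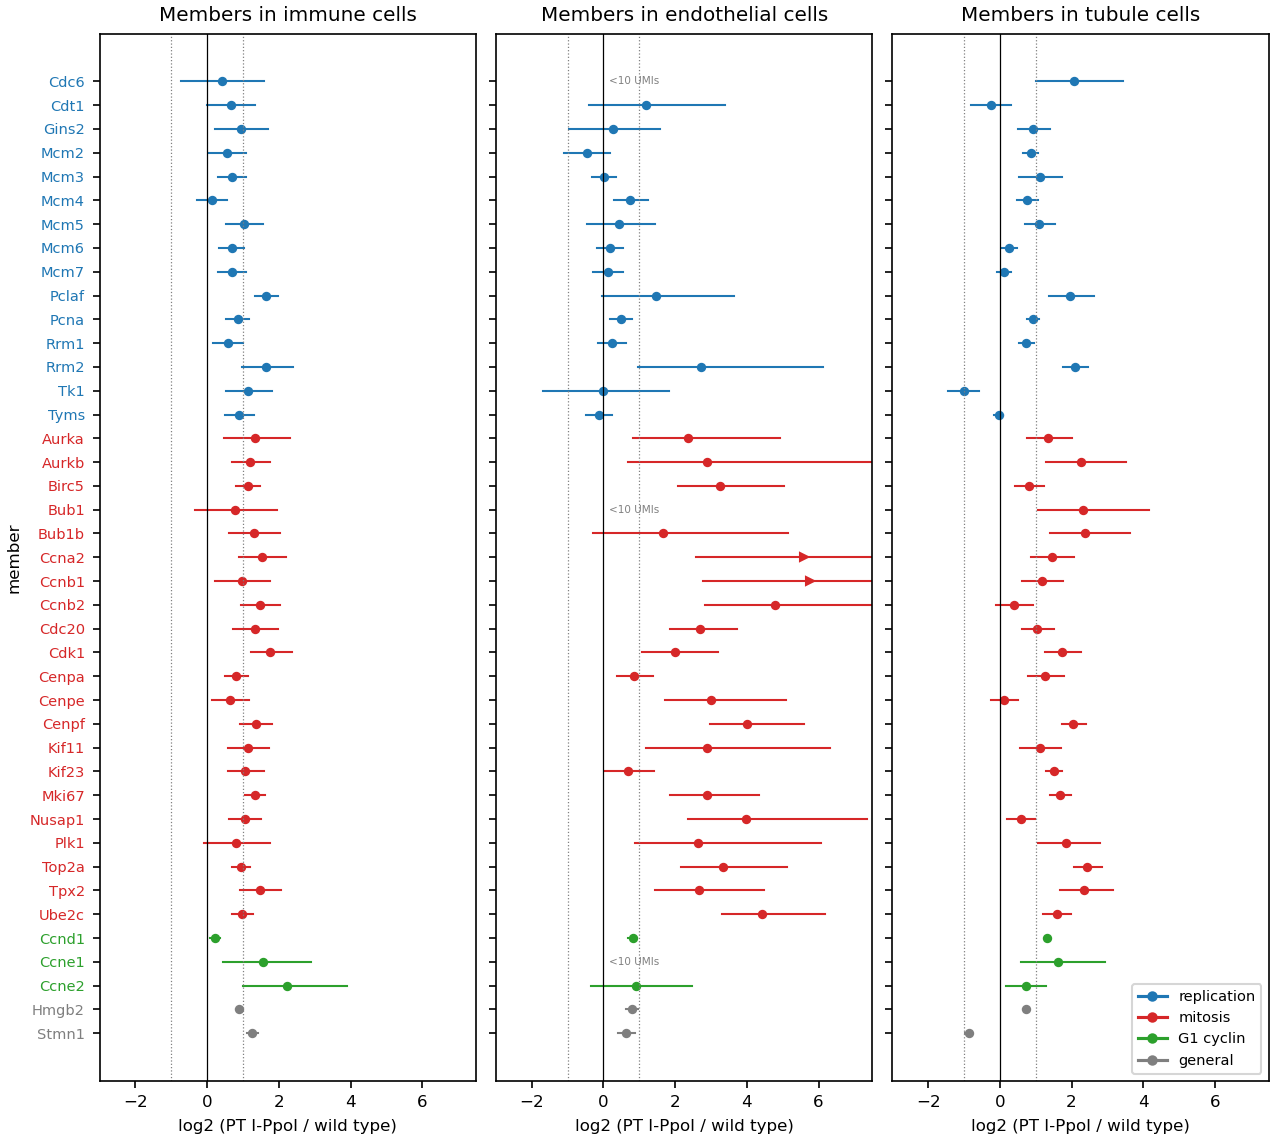
Log2 ratio of PT I-PpoI over wild type for each of the 41 members in immune, endothelial and tubule cells, with bars for the 95% counting interval, dotted lines at 2-fold either way, triangles for members with no wild-type UMI, and bars that run past the axis cropped at its edge. Mitosis members (red) lie right of 0 in the immune and tubule panels, and those of endothelial cells have the widest intervals.

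Most mitosis UMIs sat in few cells, except in wild-type endothelial cells. A cell was called co-expressing when 3 or more of the 21 mitosis members were read in it, a limit chosen after the values were seen. Such cells numbered 42 of 591 and 31 of 1571 in immune, 9 of 847 and 1 of 2113 in endothelial and 50 of 3265 and 19 of 7785 in tubule cells. Near the limit, 25 and 18 immune, 18 and 11 endothelial and 80 and 35 tubule cells read exactly 2 members, 4 and 3, 2 and 0, and 14 and 6 cells read exactly 3, and 1 and 3, 1 and 0, and 2 and 5 cells read exactly 4. Co-expressing cells held 91.1% and 83.3% of the mitosis UMIs of immune cells, 84.4% and 9.33% of those of endothelial cells, and 74.0% and 52.2% of those of tubule cells. Of the replication UMIs they held 61.5% and 38.0% in immune cells, 5.84% and 1.33% in endothelial cells, and 16.0% and 3.88% in tubule cells. The limit itself uses mitosis members, so the gap between the lists' shares is not a result.

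In endothelial cells of PT I-PpoI, 5 cells held 83.0% of the mitosis UMIs. They read 354, 249, 205, 151 and 37 mitosis UMIs, while the highest wild-type endothelial cell read 14. Without the 5 cells with most mitosis UMIs in each library the sums were 27.4 and 22.5 CPM, a ratio of 0.28 (-0.05 to 0.61) in place of 2.60. When the cell cycle genes were left in the clustering, 4 of the 9 co-expressing endothelial cells, with 959 mitosis UMIs, moved to a cluster led by Cenpf, Aspm, Ckap2 and Pbk, mitosis genes, and the ratio was 0.44. That cluster also took co-expressing cells of the PT and the distal segments, and it counted as tubule because 3 markers of the distal convoluted tubule were detected in it. Endothelial markers made up 0.951% of the UMIs of the 9 cells and 1.15% of those of the other endothelial cells, while tubule markers made up 0.0682% and 0.361%.

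In tubule and immune cells the ratio was as large without the 5 top cells. Without the 5 cells with most mitosis UMIs per library the tubule ratio was 1.69 (1.56 to 1.81) and the immune ratio 1.22 (1.10 to 1.34). In tubule cells those 5 held 35.1% and 44.5% of the mitosis UMIs. Without 10 cells per library the tubule ratio was lower, 1.33 (1.20 to 1.46), and the immune ratio 1.23 (1.09 to 1.38). Single tubule cells still held much: 1 cell of PT I-PpoI read 459 mitosis UMIs and all 21 members, and 1 wild-type PT cell read 294 UMIs and all 21. The PT I-PpoI cell was classed as a principal cell here, but not with the cell cycle genes kept or with its library clustered on its own. Markers of immune cells made up 0.0863% and 0.0873% of the UMIs of co-expressing tubule cells and 0.0744% and 0.0629% of those of the other tubule cells. When each library was clustered on its own, 15 of the 50 tubule cells of PT I-PpoI, with 1967 of their 2894 mitosis UMIs, lay in a cluster left without a name and led by Pbk, Rrm2, Nek2 and Cenpf, while all 19 of wild type stayed among tubule cells. The ratio of 0.47 above, and the single genes that turned under this setting, thus leave such cells out of 1 library alone. Tubule markers made up 2.63% and 2.50% of the UMIs of co-expressing cells, beside 3.49% and 4.72% in the other tubule cells. Co-expressing tubule cells were deeper than the others, with a median of 23006 and 7129 UMIs against 14682 and 3358.

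**Figure D3:**
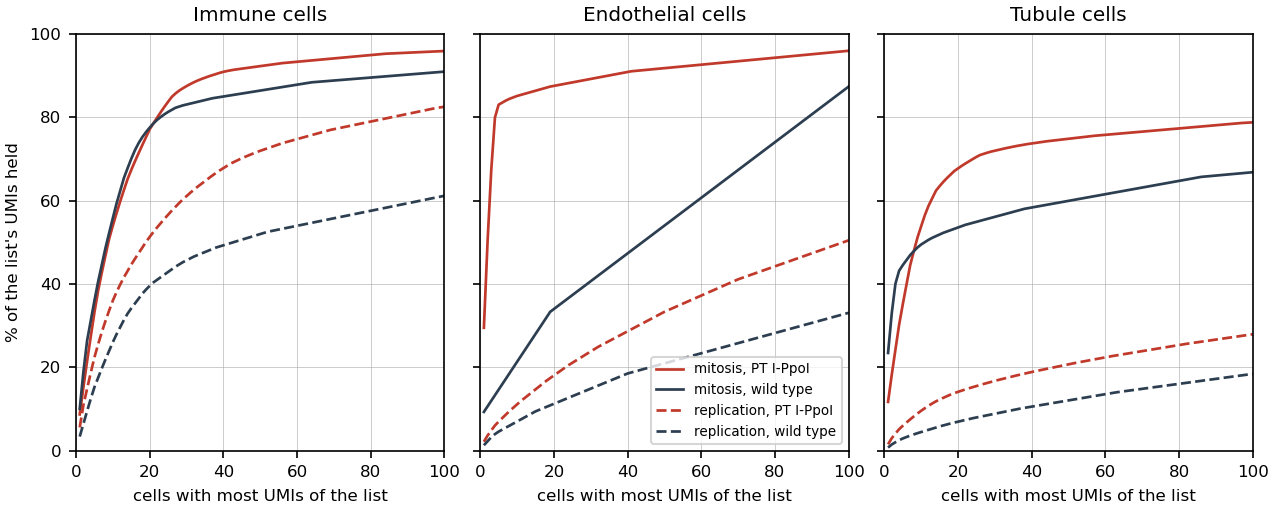
Share of the mitosis UMIs (solid) and replication UMIs (dashed) held by the cells with most UMIs of that list, against the number of such cells up to 100, for PT I-PpoI (red) and wild type (dark blue). The solid red line of endothelial cells reaches 83.0% at 5 cells, while replication lines climb slowly outside immune cells.

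Because wild-type cells were shallower, each cell was also thinned to 2000 UMIs and called positive with 2 or more mitosis members. Among immune cells 38 of 553 (6.87%, 4.91 to 9.31) and 27 of 1192 (2.27%, 1.50 to 3.28) were positive. Among tubule cells 26 of 2946 (0.883%, 0.577 to 1.29) and 11 of 4919 (0.224%, 0.112 to 0.400) were positive. Among endothelial cells 6 of 761 (0.788%, 0.290 to 1.71) and 4 of 1179 (0.339%, 0.0925 to 0.866) were positive. These intervals count cells within 1 library each and hold no spread between animals. Unthinned, the shares were 11.3% and 3.12% in immune, 3.98% and 0.694% in tubule and 3.19% and 0.568% in endothelial cells. In podocytes, cells that do not divide in the adult, 0 of 44 and 0 of 13 thinned cells were positive, which allows shares of up to 8.04% and 24.7%, at median depths of 9136 and 2811.5 UMIs before thinning. Thinning left out 38 and 379 immune, 319 and 2866 tubule and 86 and 934 endothelial cells under 2000 UMIs.

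Within the immune cells, conventional dendritic cells (cDC) had the highest mitosis level in both libraries. They summed to 1316 and 622 CPM of mitosis members (ratio 1.08) and 583 and 343 CPM of replication members (0.76), with 19 of 106 and 17 of 239 cells co-expressing. Macrophages stood at 402 and 183 CPM of mitosis members (1.13) and 290 and 147 CPM of replication members (0.98), with 11 of 259 and 10 of 696 cells co-expressing. T or NK cells stood at 612 and 245 CPM of mitosis members (1.32), with 12 of 138 and 4 of 470 cells co-expressing. Their replication level, 773 and 285 CPM (1.44), was the highest of these classes in PT I-PpoI but lay below that of cDC in wild type. In T or NK cells 12 of 15 replication members were 2-fold higher or more (5.35% of genes), in macrophages 7 of 14 (6.8%) and in cDC 4 of 14 (8.57%). Without the 5 top cells per library the replication ratio of T or NK cells was 1.04 (0.78 to 1.29) and that of macrophages 1.02. B cells, 47 and 142 in number, had no co-expressing cell. Clustered on its own, the PT I-PpoI library split most of the cDC into a cDC cluster of 58 cells and a monocyte cluster of 55, and 5 of the 19 co-expressing cDC lay in the latter, while all 17 of wild type stayed in cDC. With the cell cycle genes kept in the clustering, most co-expressing macrophages of both libraries lay in a cluster named cDC, of 21 and 18 cells.

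Within the tubule, PT cells of the PT I-PpoI library had the highest mitosis level, from few cells. The mitosis sum was 301 CPM (277 to 325) and 27.9 CPM (26.1 to 29.8), a ratio of 3.43 (3.28 to 3.58), and 20 of 20 members were 2-fold higher or more, beside 17.2% of genes. The PT I-PpoI value came from 170 cells, of which 7 were co-expressing, with 254, 193, 43, 40, 36, 24 and 5 mitosis UMIs. These 7 held 96.1% of the mitosis UMIs. Without the 5 top cells per library the sums were 26.5 and 11.9 CPM, a ratio of 1.17 (0.71 to 1.57). As a share, 7 of 170 (4.12%) and 18 of 5897 (0.305%) PT cells were co-expressing, and after thinning 6 of 165 (3.64%, 1.35 to 7.75) and 9 of 3650 (0.247%, 0.113 to 0.468) were positive. The PT cells of the libraries came mostly from different clusters: 121 of 170 and 826 of 5897 lay in 1 cluster, and most wild-type cells in others, the largest of them with 1375, 1245 and 1137 cells. PT markers were read in all 7 cells, at 0.971% of their UMIs and at 2.24% in the other 163 cells. Mki67 in PT cells had 130 and 97 UMIs in 6 and 21 cells, and Top2a 85 and 55 UMIs in 5 and 14 cells.

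In the distal segments, which fine-tune salt and acid, co-expressing cells were found in each class of PT I-PpoI, while wild type had a single one, in the TAL. They numbered 9 of 1412 and 1 of 945 in the TAL, 13 of 576 and 0 of 312 in the DCT, 6 of 219 and 0 of 133 in the connecting tubule (CNT), 6 of 450 and 0 of 171 among principal cells (PC), and 8 of 358 and 0 of 259 among intercalated cells (IC). A count of 0 of 312 allows up to 1.18% and 0 of 171 up to 2.13% of cells. The class of many of these cells depended on the clustering. The 15 of 50 tubule cells left without a name when PT I-PpoI was clustered on its own all came from these segments. Among them were most of the co-expressing DCT cells and the TAL, PC and IC cells with most mitosis UMIs. Depth differed too, with a median of 12736 and 2583 UMIs in the TAL and 15602 and 3152.5 in the DCT. Thinned, 10 of 487 (2.05%, 0.989 to 3.74) and 0 of 186 DCT cells were positive, and 6 of 1270 (0.472%) and 1 of 528 (0.189%) TAL cells. The other classes had 2 of 350 (0.571%) and 1 of 216 (0.463%) positive IC, 1 of 446 (0.224%) and 0 of 166 PC, and 1 of 151 (0.662%) and 0 of 108 CNT cells. Of the co-expressing cells 5 of the 6 PC and 5 of the 8 IC read exactly 3 members, and these were deep, with 12881 to 62255 UMIs in PC and 46804 to 57469 in IC.

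Mitosis and replication sums of these segments had unlike ratios. DCT cells had 90.2 and 12.2 CPM of mitosis members (ratio 2.85, 2.23 to 3.62) and 109 and 55.4 CPM of replication members (0.97). Of the 21 mitosis members there, 18 were 2-fold higher or more (4.27% of genes), but 14 had no wild-type UMI, and with those wild-type counts set to the floor of 3 UMIs the median ratio is 0.80 in place of 2.61. TAL cells had 64.9 and 32.8 CPM of mitosis members (0.98) and 80.5 and 58.1 CPM of replication members (0.47), with 15 of 21 and 1 of 14 members 2-fold higher or more (4.0% of genes). Without the 5 top cells per library the TAL mitosis ratio was 0.06 (-0.26 to 0.41) and that of the DCT 1.64 (0.89 to 2.62). PC had 72.3 and 24.4 CPM of mitosis members (ratio 1.55), with 15 of 19 members 2-fold higher or more (3.93% of genes). Of these 19 members, 11 had no wild-type UMI. With those wild-type counts set to the floor of 3 UMIs the median ratio is 0.72 in place of 2.42. A single PT I-PpoI cell held 71.1% of the PC mitosis UMIs there, so the 15 members are not separate support. Without the single cell with most UMIs per library the PC ratio became -0.13. IC had 11 of 13 members 2-fold higher or more (2.57% of genes), with 3 of the 13 at 0 wild-type UMIs. Without the single top cell per library the IC ratio went from 1.24 to 0.67. In PC the replication sums were 125 and 114 CPM, a ratio of 0.12 (-0.09 to 0.35).

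Many cells read several replication members and no mitosis member. Of the co-expressing cells, 32 of 42 and 21 of 31 immune, 6 of 9 and 1 of 1 endothelial, and 38 of 50 and 8 of 19 tubule cells also read 3 or more replication members. In the other direction, 537 and 171 tubule cells read 3 or more replication members, and 298 and 121 of them read no mitosis member. In endothelial cells 140 and 24 cells read 3 or more, and 79 and 21 of them no mitosis member, while in immune cells the numbers were 82 and 48 cells, with 23 and 17 that read none. These counts are unthinned, with a median of 14793 and 3362 UMIs in tubule and 4572 and 2110 in endothelial cells. Thinned to 2000 UMIs, 2 or more replication members were read in 2.24% and 0.813% of tubule cells, against 31.1% and 7.67% unthinned. In endothelial cells the shares were 4.86% and 3.65%, against 30.3% and 6.06%. In immune cells they were 9.76% and 4.61%, against 25.0% and 7.77%. By gene, Pclaf had 95.7% and 95.8% of its immune UMIs in co-expressing cells and Rrm2 93.8% and 92.0%, whereas Pcna had 33.5% and 24.3%. In tubule cells Pcna had 9.85% and 2.67% there, Tyms 10.1% and 2.47%, Mcm2 8.11% and 1.82%, and Rrm2 46.5% and 27.1%. These cells are defined by mitosis members, so only the shares of the other genes describe something the limit did not use.

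RNA outside cells was read with the members too. Barcodes of 100 or fewer UMIs, which hold RNA free in the suspension, gave 99.1 and 64.6 CPM of replication members and 80.8 and 39.8 CPM of mitosis members. The replication level of tubule cells (104 and 72.4 CPM) lay close to that of these barcodes, and their mitosis level (74.4 and 27.1 CPM) lay below it, as did that of wild-type endothelial cells (26.3 CPM). After free RNA was subtracted the replication ratio was 0.52 in tubule, 0.67 in immune and 0.11 in endothelial cells. The estimated free RNA was 5.30% and 22.2% of UMIs in immune, 13.5% and 22.9% in endothelial and 19.8% and 16.2% in tubule cells. The mitosis ratio of immune cells after the same subtraction was 0.89, of endothelial cells 2.94 and of tubule cells 1.56.

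**Figure D4:**
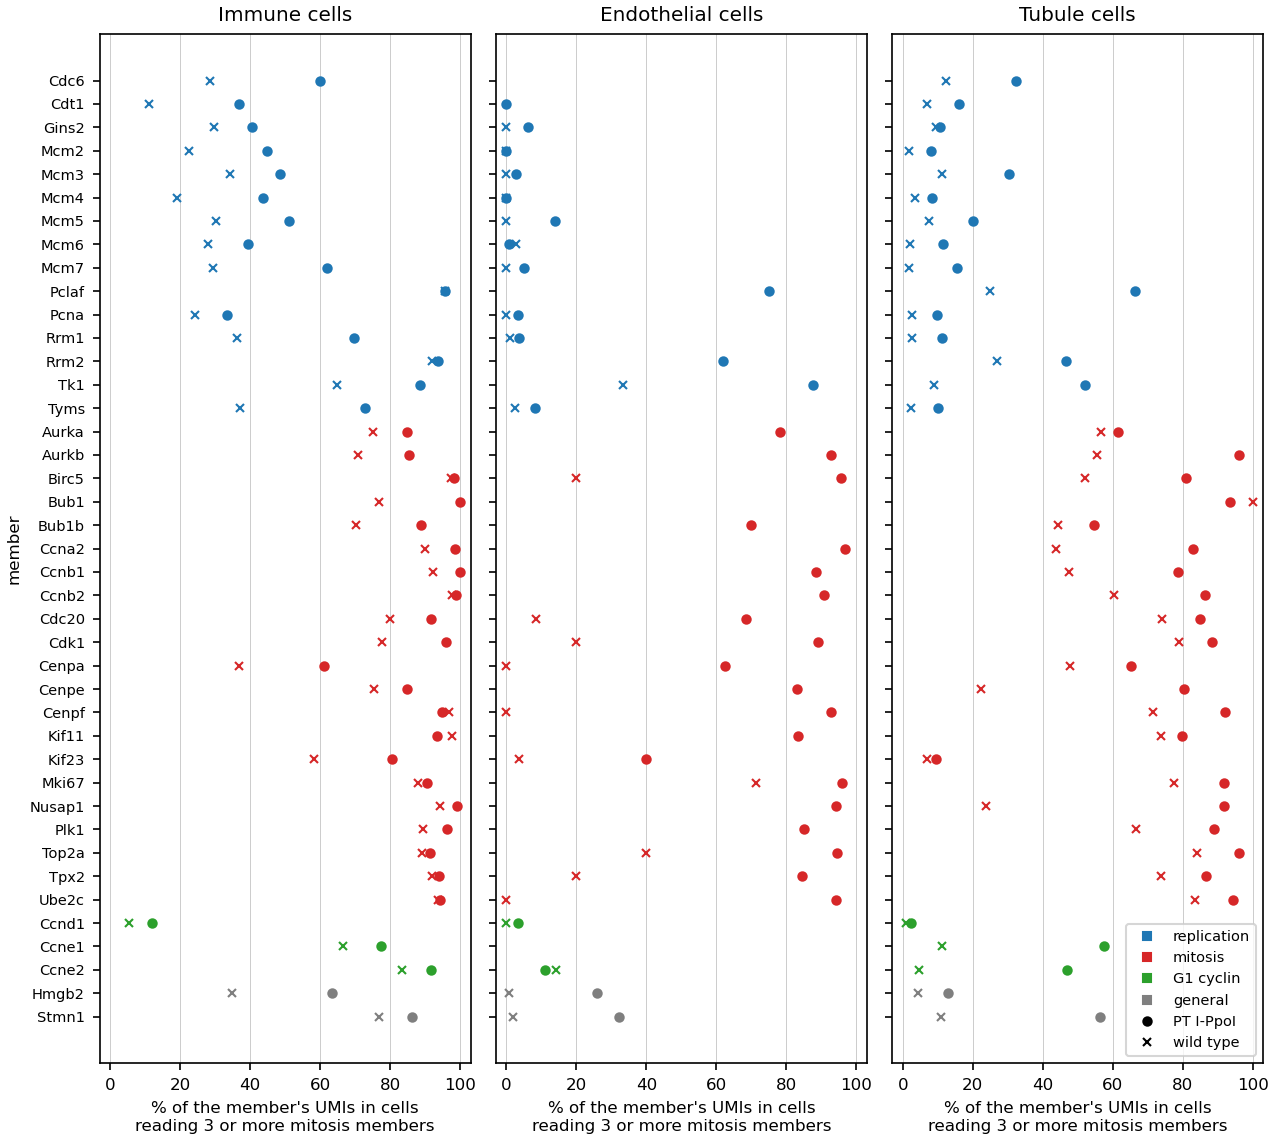
Share of each member's UMIs that lay in cells reading 3 or more mitosis members other than itself, for PT I-PpoI (circles) and wild type (crosses), by lineage, shown where a library had 5 or more UMIs. Mitosis members (red) lie mostly above 75% in PT I-PpoI, while Kif23 in tubule cells lies at 9.50% and 7.08% and most replication members (blue) lie low outside immune cells.

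Some mitosis members were read mostly outside co-expressing cells. Kif23 (chr9:61915905-61946774, GRCm38), a kinesin of the central spindle in cytokinesis, had 9.50% and 7.08% of its tubule UMIs in such cells, against 91.8% and 77.5% for Mki67. It was read in 507 and 176 tubule cells. In the TAL it had 286 and 78 UMIs in 220 and 69 of the cells, at 15.2 and 18.3 CPM, a ratio of -0.28. In PC it stood at 13.1 and 19.3 CPM (-0.57), in IC at 20.9 and 15.7 CPM (0.41), in the DCT at 6.86 and 7.09 CPM (-0.10) and in PT cells at 11.2 and 0.810 CPM (3.79). The pooled tubule ratio of 1.50 was thus above that of each distal segment, and PT cells, where wild type read Kif23 least, were 170 and 5897 of the tubule cells. Free RNA held it at 6.43 and 1.79 CPM.

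Cenpa (chr5:30666777-30674830), the histone variant of centromeres, had its highest level in mural cells, the contractile cells around vessels. There it had 331 and 189 UMIs in 99 of 132 and 96 of 174 cells, at 313 and 261 CPM, a ratio of 0.26. All 21 mitosis members together had 368 and 199 UMIs there, and 1 mural cell in each library was co-expressing. Another pair of genes had scattered UMIs in wild-type PT cells: Cenpe was read with 100 UMIs in 75 cells and Nusap1 with 83 UMIs in 66 cells. In wild-type tubule cells as a whole, 78 of 82 and 69 of 75 of the cells that read them read fewer than 3 other mitosis members. Each of these 4 genes was thus read in many cells with few other mitosis members. Without Kif23 and Cenpa the mitosis ratio was 1.17 in immune, 3.42 in endothelial and 1.46 in tubule cells.

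Ccnd1 (chr7:144929931-144939925), cyclin D1, which answers growth signals in G1, was read in most tubule cells of PT I-PpoI, nearly all of them not co-expressing. It had 18621 and 6577 UMIs in 2520 and 2198 tubule cells, at 354 and 142 CPM, a ratio of 1.32 (1.28 to 1.36), and 2.23% and 0.851% of them lay in co-expressing cells. By segment it stood at 269 and 94.4 CPM in PT cells, 444 and 284 in the TAL, 379 and 233 in the DCT, 420 and 280 in the CNT, 418 and 444 in PC, and 107 and 174 in IC. PC and IC thus lay on the other side of 0, with ratios of -0.09 and -0.69. In endothelial cells it stood at 263 and 150 CPM (0.81), in mural cells at 505 and 233 CPM (1.11), in macrophages at 261 and 176 CPM (0.57), in cDC at 341 and 391.7 CPM (-0.20) and in T or NK cells at 16.1 and 33.0 CPM (-0.99). Barcodes of free RNA held 222 and 70.6 CPM, and the part of free RNA in the classes with low levels was not tested. Cyclins E1 and E2, which open S phase, were sparse. Ccne1 had 22 and 9 UMIs in immune and 33 and 9 in tubule cells, and Ccne2 24 and 6 in immune and 81 and 43 in tubule cells, with tubule ratios of 1.63 and 0.72.

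Stmn1 (chr4:134468320-134473843), which destabilises microtubules and is high in dividing cells and neurons, stood on either side of 0 by lineage. In immune cells it stood at 244 and 102 CPM (1.25) and in endothelial cells at 59.3 and 38.0 CPM (0.64). In tubule cells as a whole it was lower in PT I-PpoI, at 24.9 and 45.5 CPM, a ratio of -0.87 (-0.97 to -0.77). Within segments it was higher or level: PT cells stood at 94.7 and 57.6 CPM (0.72), the TAL at 11.8 and 10.5 CPM (0.15), the DCT at 32.9 and 4.51 CPM (2.77), and the thin limb at 92.4 and 93.5 CPM (-0.02). Wild-type PT cells held 1920 of the 2108 wild-type tubule UMIs of Stmn1, spread over 1212 cells. Hmgb2, a chromatin protein that is also broadly expressed, stood at 748 and 408 CPM in immune (0.88), 137 and 78.4 in endothelial (0.80) and 90.2 and 54.7 in tubule cells (0.72). Of its UMIs 63.5% and 34.7% lay in co-expressing immune cells and 12.9% and 4.35% in co-expressing tubule cells.

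**Figure D5:**
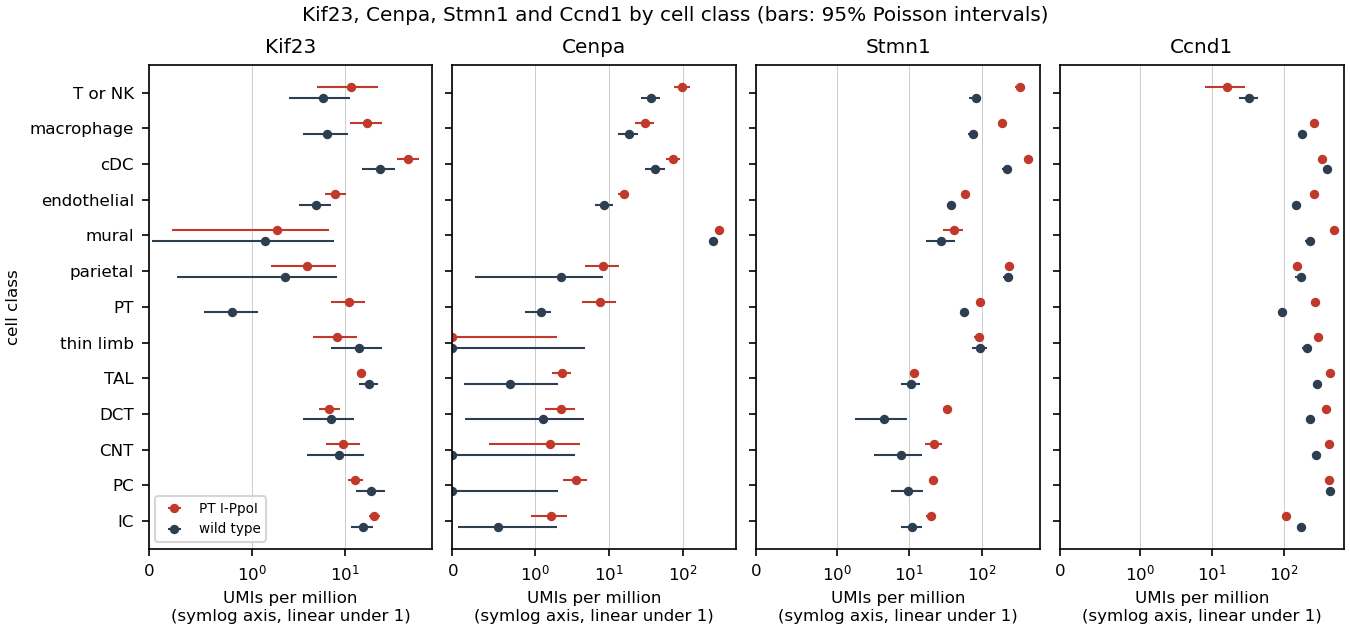
Level of Kif23, Cenpa, Stmn1 and Ccnd1 in each cell class in CPM (log axis above 1, linear below), with PT I-PpoI in red, wild type in dark blue and bars for the 95% Poisson interval. Cenpa peaks in mural cells at 313 and 261 CPM, Kif23 is near 10 CPM in most tubule classes, and Ccnd1 is lowest in T or NK cells.

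Other genes of the cell cycle were counted from lists of reference knowledge. Of 42 further mitosis genes, 27 of 41 with 10 or more UMIs were 2-fold higher or more in immune cells, 23 of 33 in endothelial cells and 25 of 41 in tubule cells, beside 5.11%, 7.22% and 22.5% of all genes. The 3 that were 2-fold lower in tubule cells were Cks2, a subunit of Cdk complexes, at 25.8 and 109 CPM (-2.08), Cit, a kinase of cytokinesis (-2.07), and the kinesin Kif20b (-2.09), all named after their values were seen. Because of Cks2 with 1354 and 5058 UMIs, the list's sum was 272 and 277 CPM (-0.03) while its median was 1.52. Within PT cells, which held 9988 of the 12827 wild-type UMIs of the list, the sums were 531 and 299.8 CPM (0.82) and the lowest ratio of 35 genes with 10 or more UMIs was -0.24. Anln, an actin binder of the cleavage furrow, had 114 and 12 UMIs in tubule cells (3.01, 2.20 to 4.06) and the kinase Pbk 179 and 22 (2.81, 2.20 to 3.55). In immune cells Pbk had 52 and 12 UMIs (2.39), and in endothelial cells Nuf2 of the kinetochore had 30 and 0. Of 32 further replication genes, 9 of 32 were 2-fold higher in immune (5.11% of genes) and 12 of 32 in tubule cells (22.5%). In endothelial cells 2 of 25 were (Cdc45 and Chaf1a, with 12 UMIs each in PT I-PpoI), near the 7.22% of all genes. In tubule cells 2 of 32 were 2-fold lower (11.9% of genes). Among these genes, Uhrf1, which keeps DNA methylation at the fork, stood at 3.08 and 0.519 CPM in tubule cells (2.55).

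Among genes that regulate or arrest the cycle, the counts past 2-fold were highest for arrest genes in the tubule. Of 10 G1 regulators 0 of 10 were 2-fold higher in immune and in tubule cells, beside 5.11% and 22.5% of genes. In endothelial cells 1 of 8 was, Myc, with 25 and 8 UMIs, beside 7.22% of genes. In tubule cells as a whole Ccnd3, another D cyclin, stood at 54.5 and 27.5 CPM (0.99) and the factor E2f1 at 0.780 and 1.23 CPM (-0.65). Within the CNT the ratio of Ccnd3 was lower, at 47.8 and 37.3 CPM (0.35, -0.18 to 0.92). Of 13 arrest genes, 5 of 12 were 2-fold higher in tubule cells (22.5% of genes). In endothelial cells 1 of 12 was (Cdkn2b, beside 7.22% of genes), and in immune cells 1 of 12 (Cdkn2a, with 7 and 4 UMIs, beside 5.11%). Cdkn2b, an inhibitor of Cdk4 and Cdk6, stood at 12.9 and 3.22 CPM in tubule cells (2.001, 1.75 to 2.27) and 16.9 and 8.22 CPM in endothelial cells (1.03). Btg1, which slows division, stood at 272 and 81.3 CPM in tubule cells (1.74) and Cdkn1c, a further kinase inhibitor, at 5.25 and 1.90 CPM (1.46). The others of the 5 were Cdkn2d (1.24) and Btg2 (1.04). By segment, 5 of 11 arrest genes were 2-fold higher in PT cells (17.2% of genes), but 0 of 12 in the TAL, PC and IC and 0 of 11 in the DCT (2.57% to 4.27% of genes), where the arrest sums had ratios of 0.27, -0.06, -0.43 and -0.74. Btg2 had ratios of 1.92 in PT cells, -0.40 in the thin limb, -0.89 in IC and -1.47 in the DCT, at 229 and 633 CPM. Btg1 stood at 127 and 80.1 CPM in the TAL (0.66) and at 260 and 167 CPM in the CNT (0.64), below its pooled tubule ratio. PT cells were 170 and 5897 of the tubule cells, so pooled tubule ratios compare unlike mixes of segments. In PT cells Cdkn1c had 27 and 34 UMIs, at 13.1 and 1.02 CPM (3.69, 2.90 to 4.46), and it is also a marker of podocytes.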

How the data were processed

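The authors deposited UMI counts of all barcodes, empty droplets included, in 1 matrix for each library, and these counts were the start. Per the submitters' processing notes, reads were counted against mm10 with Cell Ranger 3.1 and followed by Seurat 3, and the matrix headers name Cell Ranger 4, per the file headers. Per the labels' protocols the libraries used 10x 3' chemistry, so a count does not grow with transcript length. Barcodes were called as cells by depth or by a multinomial test against ambient RNA (10000 simulations, rate 0.01), and kept with 500 or more UMIs, 200 or more genes and at most 50% mitochondrial UMIs. Scrublet in scanpy 1.11.5 removed 77 and 262 doublets. Cells were clustered (Leiden, resolution 1) without the cell cycle genes and named from 3 or more detected markers; T and NK markers were merged after 1 cluster was seen to hold both. Sums per lineage or class were scaled to CPM, and ratios used a prior of 0.5 counts with exact conditional binomial intervals; shares have Clopper-Pearson intervals. Members of 30 or more UMIs in a lineage were described singly, with counts for others; up to 3 genes of each other list were named by size of ratio. Lineages of all cells and classes of 50 or more cells per library were compared. Nothing was fitted across libraries, since 1 library per group allows no test; the interval script was tested on simulated counts, and edgeR gave only TMM factors. The members and lists were chosen with earlier results of these data known. Gene positions are from GENCODE M21 and promoters from RefSeq. The Mcm7, Cenpa and Cdk1 windows overlap annotated exons and are not shown. Depth per library limits the precision, and intervals and floors cover counting error only. 1 further replication gene is not reported here.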

Additional observations from a re-analysis of the deposited data

Results flagged for a closer look

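Stmn1 and Tk1 had opposite directions in different lineages, and the difference between lineages was not tested. The log2 ratio of PT I-PpoI over wild type for Stmn1 was 1.25 in immune cells, 0.641 in endothelial cells and -0.869 in tubule cells. For Tk1 it was 1.15 in immune cells and -1.01 in tubule cells. Within PT cells both ratios were above 0, at 0.72 for Stmn1 and 1.35 for Tk1.

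Cenpa gave a signal in cells outside the 3 lineages compared, with 313 CPM in PT I-PpoI mural cells and 261 CPM in wild-type mural cells.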

How the results depend on the processing

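Of 112 other settings tried for the sums, shares and counts, 79 stayed within the interval of the reported value (counts within 1.5 times) and 33 moved. Of 15 further settings chosen after the data were seen, 10 stayed and 5 moved. No sum of the 3 lineages changed its direction, but the mitosis ratio of PC went from 1.55 to -0.13 without the 1 cell with most UMIs in each library. For the mitosis ratio of endothelial cells (2.60) the value was 0.44 with the cell cycle genes kept in the clustering, 2.94 after subtraction of free RNA, 2.19 as a mean over cells, 2.24 and 0.28 without the 1 or 5 cells with most UMIs in each library, and 3.42 without Kif23 and Cenpa. For the mitosis ratio of tubule cells (1.46) it was 0.47 with each library clustered on its own, 1.11 with TMM factors, 1.14 with at most 30% mitochondrial UMIs, 1.88 with the cell cycle genes kept, 1.56 after subtraction, 1.67 over cells, 1.92 with classes weighted equally, and 1.67 and 1.69 without 1 or 5 cells. For that of immune cells (1.13) it was 1.27 with doublets kept, 0.89 after subtraction and 1.46 over cells. The replication ratio was 0.67 after subtraction and 1.09 with classes weighted equally in immune cells (0.88), 0.046 with TMM factors and 0.11 after subtraction in endothelial cells (0.24), and 0.42 clustered on its own, 0.18 with TMM factors and 0.46 with classes weighted equally in tubule cells (0.53). With 1 member in place of 2 the positive shares were 21.7% and 9.98% of immune, 6.18% and 4.58% of endothelial and 4.85% and 2.54% of tubule cells. With 3 members the wild-type endothelial share was 0.0848%, at 1000 UMIs the wild-type immune share was 1.46%, the PT I-PpoI endothelial share was 0.264% with the cell cycle genes kept, and the PT I-PpoI tubule share was 0.514% clustered on its own. Members 2-fold higher in endothelial cells numbered 21, and 13 with a minimum of 30 UMIs. Members 2-fold lower numbered 0 in endothelial cells and 1 with no minimum, and 1 in tubule cells and 2 with TMM factors. Single values with an interval off 0 that turned were, with the cell cycle genes kept, Cdk1 (-0.78), Birc5 (-0.10) and Cenpa (-0.25) in endothelial cells, with each library clustered on its own, Ccnb1 (-0.022), Cdk1 (-0.10), Cdc20 (-0.45), Birc5 (-0.54), Ube2c (-0.63), Kif11 (-0.025) and Nusap1 (-1.43) in tubule cells, and with TMM factors Mcm6 (-0.093) in tubule cells, where Mcm7 (-0.23) and Cenpe (-0.22), with intervals that spanned 0, changed sign too. Where the clustering differs, cells change class, and where the scaling differs, all genes shift alike; the cause was not tested for the rest. Of 648 such single values 571 stayed within their interval and 66 others moved. Weighting classes equally was not run for endothelial cells, which are 1 class. No paired analysis was possible because each group has 1 library. Depth limits the wild-type cells most, with a median of 2700 UMIs against 11233.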
